A study of Mus musculus with 71 samples.

Results

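The genes described here are 47 homeobox developmental genes outside the Hox clusters, measured in mouse embryonic stem (ES) cells. They were taken by symbol from the deposited count tables: the Barx, Dlx and Msx genes, the Dbx, En, Emx, Gbx, Vax, Otp and Otx1 genes, the paired-type Alx, Pitx, Prrx, Uncx, Shox2 and Gsc genes, the Tlx, Lmx1, Mnx1 and Evx genes, the TALE (three-amino-acid-loop-extension) genes of the Meis and Pbx families, and Hhex and Hlx. No cutoff on a measured value was applied, but the genes were chosen with earlier results of these data known. All 47 symbols are among the 24222 genes of the tables. Of them, 27 had enough reads to be tested, 18 had reads but too few to be tested, and 2 (Otp and Evx2) had no read in any library.

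RNA sequencing was done on 9 libraries from C57BL/6 ES cells grown on gelatin in 2i medium, a medium with kinase inhibitors that favours naive pluripotency. The groups were 3 libraries of wild type (WT), 3 of the Ezh1/Ezh2 double knockout (dKO) and 3 labelled EZH2 rescue, in which wild-type EZH2 is re-expressed. A list of Suz12 peaks came from wild-type ES cells of another background, 129B6F1, so peaks and RNA were not measured in the same line. How many clones stand behind each group, and whether its 3 libraries came from separate cultures, is not given in the sources used here. The p-values therefore measure no more than the spread among the libraries, which may be technical.

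Polycomb repressive complex 2 (PRC2) uses EZH1 or EZH2 as its enzyme to place methyl groups on lysine 27 of histone H3, and it needs SUZ12 as a core subunit. Homeobox genes encode transcription factors that bind DNA through the homeodomain and give cells their regional or lineage identity. In ES cells many of them are silent and lie in CpG-rich chromatin that PRC2 marks, which makes them a classic group of PRC2 target genes. The TALE proteins differ from the others in that they act as cofactors that bind DNA together with Hox and other homeodomain proteins.

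Ezh1, in CPM (reads scaled to the size and composition of each library), was at 53.4, 48.4 and 47.9 in WT, at 2.34, 1.83 and 1.80 in dKO and at 2.89, 2.33 and 3.42 in rescue libraries. Ezh2 was at 308, 314 and 310 CPM in WT, 192, 191 and 214 CPM in dKO and 555, 576 and 549 CPM in rescue libraries. Ezh1 was thus low in the rescue libraries as in the dKO libraries, and Ezh2 was highest in rescue. Which exons of Ezh2 were removed is not given in the sources used here, and reads from remaining exons check nothing about the label. Totals ran from 12457622 to 36009529 reads per library. The third dKO library stood apart from the other two by a chi-square per degree of freedom of 23.9 and 23.8, where other pairs of one group gave 2.21 to 12.1. All 10 naive ES markers were above 1 CPM in every library.

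Suz12 peaks lay over almost all of these genes. In the wild-type peak list, 44 of the 47 genes had a peak over the gene or within 1000 bp of it, 93.6%, against 5877 of 24104 placed genes, 24.4%. The 3 without a peak were the TALE genes Meis3, Pbx2 and Pbx4, whose start sites lay 16007, 13306 and 40989 bp from the nearest peak. Of the 33 genes with an entry in the RefSeq promoter table, 29 had their start site inside a peak. The peak list is a single list with no score, so these are descriptions without a test.

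The peaks were also wide. The 7480 peaks of the list had a median width of 1032 bp, and the widest peak over each of the 44 genes exceeded that median, with a median of 4542 bp among them. A peak over 3000 bp was found at 33 of the 47 genes, 70.2%, and at 2.24% of all placed genes. Uncx (11697 bp), a paired-type gene of the developing vertebrae, Otx1 (11454 bp) and Dlx2 (10727 bp) had the widest ones. Prrx2 (1183 bp) and Dbx2 (1799 bp) had the narrowest. Lmx1b had 4 separate peaks, the most of any of these genes.

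**Figure D1:**
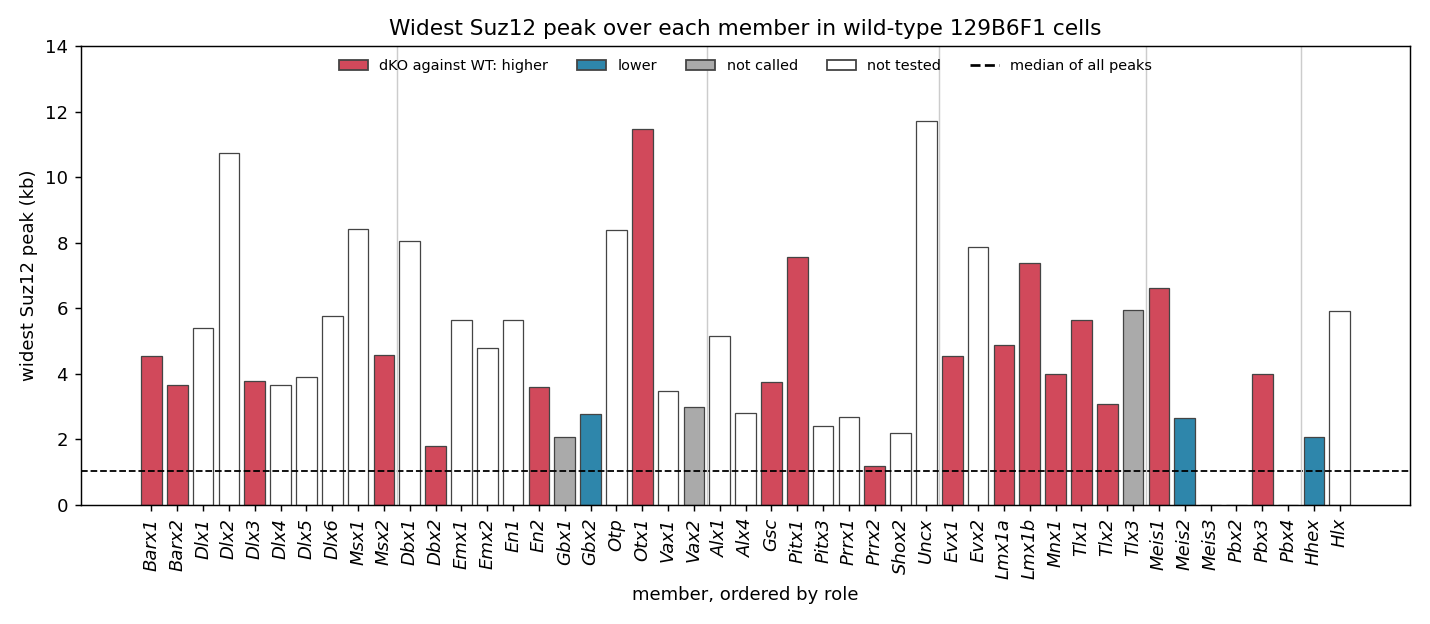
Width in kb of the widest Suz12 peak over each of the 47 genes in wild-type 129B6F1 cells, ordered by role (vertical lines) and coloured by the call in dKO against WT. The dashed line is the median of all peaks, 1032 bp; Meis3, Pbx2 and Pbx4 have no bar because they have no peak.

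The promoters of these genes were rich in CpG dinucleotides. The window from 250 bases before to 50 bases after the start site held a median of 21 CpG in the 33 genes with an entry, against 13 for the 21633 promoters of genes in the tables. The ratio of observed to expected CpG had a median of 0.79 against 0.57, and 27 of 33 (81.8%) exceeded 0.6 against 48.1%. Median GC content was 60.7% against 56.7%. The homeodomain core motif TAAT, searched on both strands, occurred in 19 of 33 windows (57.6%), against 51.6% of the windows of genes in the tables and 58.0% of all 32851 windows.

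Promoter windows of 5 genes show some of the sequence behind the results that follow, with each CG in capitals (RefSeq, GRCm38.p6, the assembly of mm10, read 5′ to 3′ on the gene's strand). Barx1, with the largest rise of the tested genes in dKO, holds 50 CpG at chr13:48662786-48663085 on the plus strand. Dbx2, with the next largest rise, holds 10 at chr15:95654722-95655021 on the minus strand. Gbx2, which fell in dKO, holds 27 at chr1:89931127-89931426 on the minus strand. Meis3, which rose in dKO with no peak, holds 21 at chr7:16175145-16175444 on the plus strand, and Pbx2, with no peak and high reads in every group, holds 29 at chr17:34592009-34592308 on the plus strand.
Barx1: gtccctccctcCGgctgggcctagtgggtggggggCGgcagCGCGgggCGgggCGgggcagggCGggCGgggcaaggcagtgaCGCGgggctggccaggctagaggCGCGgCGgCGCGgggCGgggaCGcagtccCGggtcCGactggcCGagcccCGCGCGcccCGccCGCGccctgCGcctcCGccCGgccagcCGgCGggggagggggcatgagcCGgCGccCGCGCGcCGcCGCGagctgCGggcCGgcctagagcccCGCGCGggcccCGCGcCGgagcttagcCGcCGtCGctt
Dbx2: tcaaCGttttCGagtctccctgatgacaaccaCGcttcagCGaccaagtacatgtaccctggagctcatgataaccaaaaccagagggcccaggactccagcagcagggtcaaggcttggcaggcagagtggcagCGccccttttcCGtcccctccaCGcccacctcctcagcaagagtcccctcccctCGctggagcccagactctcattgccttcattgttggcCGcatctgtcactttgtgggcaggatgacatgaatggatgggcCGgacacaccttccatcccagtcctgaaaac
Gbx2: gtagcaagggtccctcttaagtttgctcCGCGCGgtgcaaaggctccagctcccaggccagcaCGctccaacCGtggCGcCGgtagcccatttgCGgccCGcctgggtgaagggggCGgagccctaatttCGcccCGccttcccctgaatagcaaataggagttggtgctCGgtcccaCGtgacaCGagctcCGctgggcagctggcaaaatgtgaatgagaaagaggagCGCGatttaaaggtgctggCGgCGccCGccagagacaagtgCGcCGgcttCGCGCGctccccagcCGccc
Meis3: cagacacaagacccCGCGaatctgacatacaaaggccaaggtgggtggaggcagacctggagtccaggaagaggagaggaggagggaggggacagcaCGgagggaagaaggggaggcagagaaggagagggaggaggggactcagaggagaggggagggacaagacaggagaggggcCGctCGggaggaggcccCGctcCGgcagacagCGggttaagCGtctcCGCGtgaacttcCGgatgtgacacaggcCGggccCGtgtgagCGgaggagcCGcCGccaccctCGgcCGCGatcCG
Pbx2: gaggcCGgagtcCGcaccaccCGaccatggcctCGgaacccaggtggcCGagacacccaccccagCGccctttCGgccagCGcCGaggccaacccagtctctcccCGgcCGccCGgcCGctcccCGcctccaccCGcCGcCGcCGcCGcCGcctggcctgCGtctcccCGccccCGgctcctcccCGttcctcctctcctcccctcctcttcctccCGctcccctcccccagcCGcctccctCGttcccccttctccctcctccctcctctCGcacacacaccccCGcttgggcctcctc
The start sites of Barx1, Dbx2 and Gbx2 lay inside Suz12 peaks of 4535, 1799 and 2772 bp. So among these 5 a promoter with 10 CpG and one with 50 were both found under a peak, while those of Meis3 and Pbx2, with 21 and 29, were not. The window of Prrx1, not shown, held only 6 CpG, and its start site also lay inside a peak.

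Most of the tested genes were higher in dKO than in WT. In dKO against WT, 19 of 27 rose and 4 fell at an adjusted p under 0.05 (edgeR quasi-likelihood test, Benjamini-Hochberg over the 14145 genes tested), and 18 of the 19 rose by over 2-fold. Among all genes tested 33.7% rose and 31% fell, and 19.1% rose and 4.39% fell by over 2-fold. The median log2 fold change of the 27 was 1.56, against -0.0026 for all genes. Passing the filter depended on the groups themselves: 8 of the 27 (Barx1, Barx2, Dbx2, Gbx1, Lmx1a, Mnx1, Prrx2 and Tlx1) were over the cutoff of 0.45 CPM in all 3 libraries of dKO only. Of these 8, Gbx1 was also over it in 1 WT and 2 rescue libraries, enough to pass without dKO, and it was not called. The other 7 rose, and a high dKO level is in part built into their being tested. Evx1 and Tlx2 were over the cutoff in all 3 libraries of rescue only. Of the 12 genes over it in all 9 libraries, 6 rose and 4 fell, and of the 14 with all 3 WT libraries over it, 8 rose and 4 fell. Without the third dKO library, 21 rose and 4 fell among the 29 genes then tested. No share of all genes that pass the same rules is given for these last counts, so they have no background here. In bulk RNA, fewer cells with a transcript and less transcript per cell cannot be told apart.

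**Figure D2:**
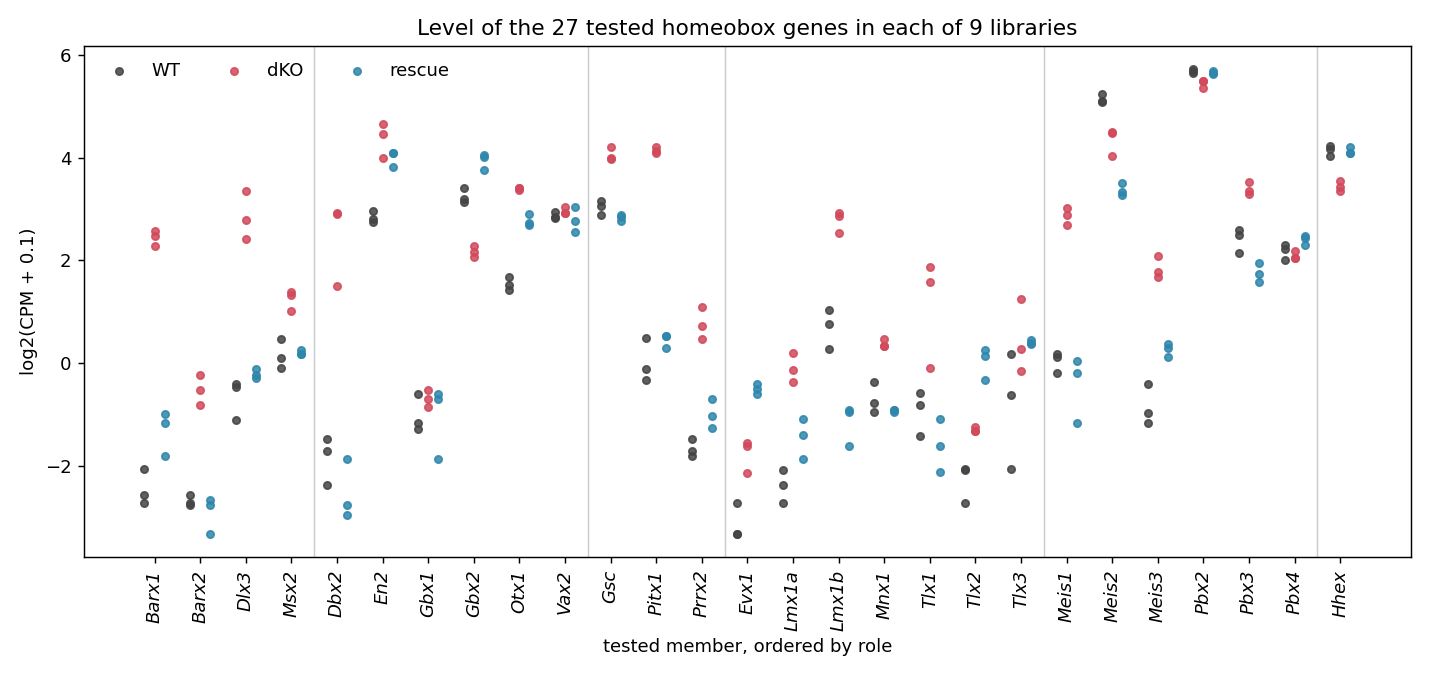
Level of the 27 tested genes in each of the 9 libraries, as log2(CPM + 0.1) with 0.1 CPM as pseudocount, ordered by role (vertical lines); each dot is a library of WT, dKO or rescue. Pitx1, Barx1 and Meis1 show all 3 dKO libraries above the others, and Gbx2, Pbx2 and Hhex show them below.

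Most of these genes were lower in rescue than in dKO. In rescue against dKO, 18 of 27 fell and 6 rose, with 38.2% of all genes lower and 32.1% higher, and the median log2 fold change was -1.24 against -0.0444 for all genes. The same filter limit holds here: 7 of the 18 that fell were tested through their dKO libraries alone. Of the 12 genes over the cutoff in all 9 libraries, 7 fell and 4 rose, again with no share of all genes under that rule. In rescue against WT, 8 rose, 3 fell and 16 were not called, with 26.8% of all genes higher and 27.3% lower, and the median was 0.04. Evx1 and Tlx2 are among the 8 that rose, and without them 6 of 25 rose. The comparisons share libraries (dKO in the first pair, WT in the other), so they are set side by side and are not independent. The libraries of the groups did not overlap for 19 higher and 4 lower genes in dKO against WT (34.8% and 33.2% of all genes), for 6 and 17 in rescue against dKO (33.2% and 38.5%) and for 11 and 4 in rescue against WT (32.8% and 32.5%).

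**Figure D3:**
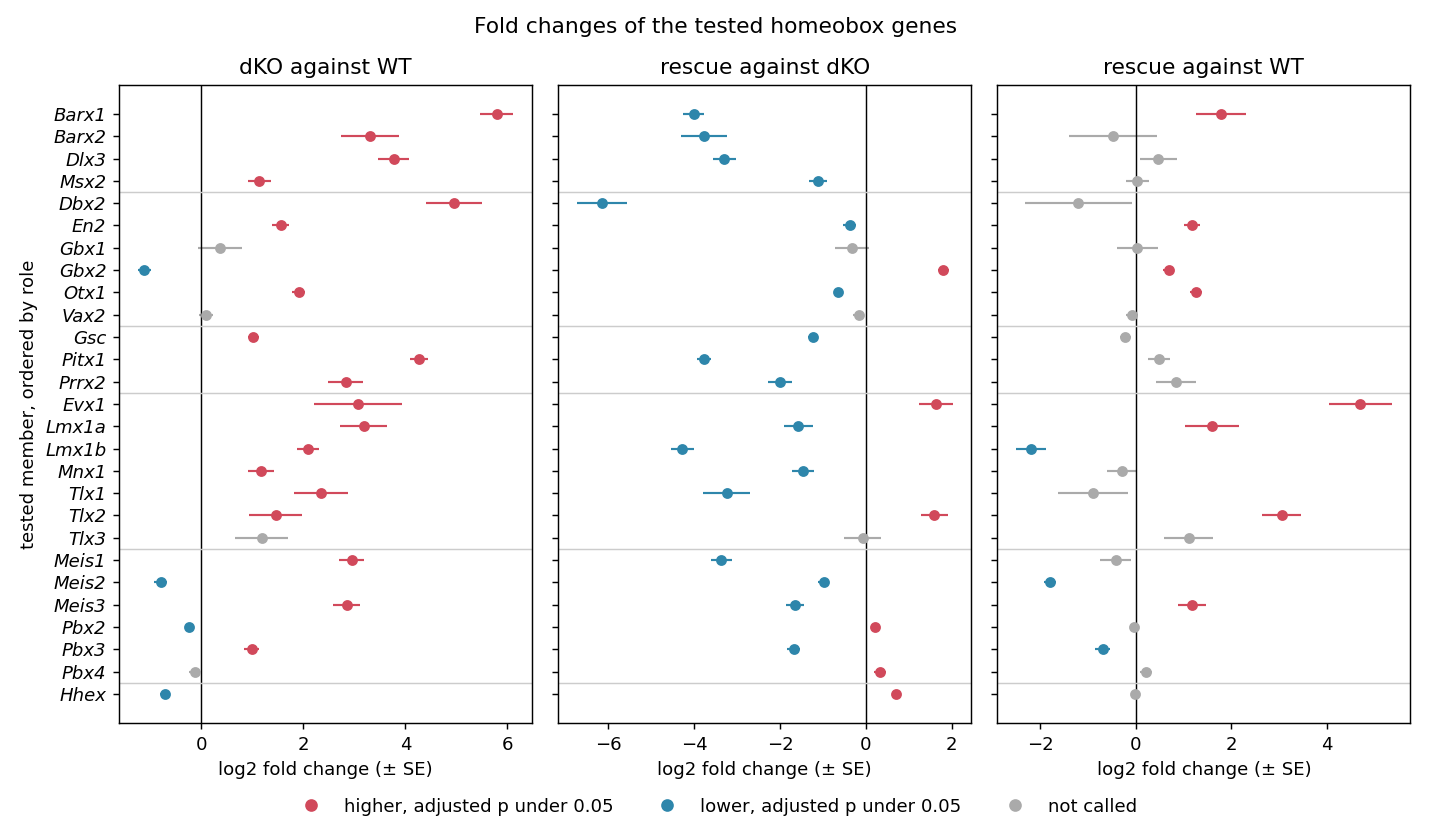
Log2 fold change with its standard error for the 27 tested genes in each comparison, ordered by role (horizontal lines), with genes called higher in red, lower in blue and not called in grey. Most red points of dKO against WT are blue in rescue against dKO, while Evx1 and Tlx2 are red in every panel and Meis2 is blue in every panel.

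The 4 tested face and limb genes, Barx1, Barx2, Dlx3 and Msx2, all rose in dKO and all fell in rescue against dKO. Barx1 and Barx2 were tested through their dKO libraries alone. Among all genes tested 33.7% rose in dKO against WT and 38.2% fell in rescue against dKO. Barx1, a regulator of stomach and tooth development, was at 0.0689, 0.14 and 0.0516 CPM in WT, 5.80, 5.42 and 4.75 CPM in dKO and 0.40, 0.187 and 0.346 CPM in rescue. The dKO libraries stood far above all others. WT and rescue rested on 5 and 26 reads. Barx1 rose in dKO against WT by a log2 fold change of 5.79 ± 0.33 (SE; edgeR adjusted p = 3.49e-08) and fell by 4.01 ± 0.24 in rescue against dKO (edgeR adjusted p = 4.75e-08). It stayed above WT in rescue by 1.78 ± 0.52 (edgeR adjusted p = 0.0123), a call that was lost without the third WT library (edgeR adjusted p = 0.0529) or the first rescue library (adjusted p = 0.0629).

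Dlx3, needed for placenta, hair and teeth, was at 0.62, 0.653 and 0.361 CPM in WT, 5.2, 6.83 and 10.02 CPM in dKO and 0.715, 0.747 and 0.821 CPM in rescue. The third dKO library was the highest, and no dKO library overlapped the others. Its log2 fold change in dKO against WT was 3.77 ± 0.30 (SE; edgeR adjusted p = 5.16e-07), and in rescue it fell by 3.30 ± 0.27 from dKO. Msx2, a regulator of skull and limb growth, was at 0.964, 0.839 and 1.29 CPM in WT, 2.41, 1.92 and 2.52 CPM in dKO and 1.09, 1.03 and 1.04 CPM in rescue. It changed least of the 4, with 1.14 ± 0.22 in dKO against WT. Barx2 rested on few reads, 36 in the dKO libraries together against 3 in WT, a ratio of 10.8 with an exact counting interval of 3.40 to 54.6 that covers counting error only.

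Among the 6 tested brain and eye genes 3 rose in dKO (Dbx2, En2 and Otx1), Gbx2 fell, and Gbx1 and Vax2 were not called. Among all genes tested 33.7% rose and 31% fell, and Dbx2 was tested through its dKO libraries alone. Dbx2, which patterns ventral spinal cord progenitors, was at 0.207, 0.0933 and 0.258 CPM in WT, 7.38, 7.51 and 2.71 CPM in dKO and 0.0286, 0.0467 and 0.173 CPM in rescue. The third dKO library was well below the other two yet above all WT and rescue libraries. Dbx2 rose by 4.95 ± 0.55 in dKO against WT (SE, log2; edgeR adjusted p = 1.03e-05), and by 5.32 without that library. In rescue it fell by 6.15 ± 0.59 from dKO, and rescue against WT was not called (-1.195 ± 1.13, edgeR adjusted p = 0.393).

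Otx1, a factor of the forebrain, was at 3.10, 2.75 and 2.58 CPM in WT, 10.2, 10.6 and 10.6 CPM in dKO and 6.35, 6.54 and 7.35 CPM in rescue. The groups did not overlap and rescue lay between the other two. Otx1 rose by 1.91 ± 0.13 in dKO against WT (SE, log2; edgeR adjusted p = 1e-07), fell by 0.64 ± 0.11 in rescue against dKO and remained above WT in rescue by 1.27 ± 0.13 (edgeR adjusted p = 8.33e-06). En2, which shapes the midbrain and cerebellum, was at 6.61, 6.85 and 7.68 CPM in WT, 21.8, 24.9 and 15.8 CPM in dKO and 17, 14 and 16.9 CPM in rescue. Its dKO and rescue libraries overlapped. It rose by 1.56 ± 0.16 in dKO and stayed higher by 1.18 ± 0.16 in rescue against WT, and fell by 0.38 ± 0.15 in rescue against dKO (edgeR adjusted p = 0.039). That last call was lost in 7 of the 9 analyses that leave out 1 library (edgeR adjusted p up to 0.216) and in the fit of those 2 groups alone (0.0863).

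Gbx2 went against the majority. It helps to place the boundary of midbrain and hindbrain and is also known as a gene of naive ES cells, and it was at 9.09, 10.5 and 8.71 CPM in WT, 4.75, 4.39 and 4.07 CPM in dKO and 16.1, 13.4 and 16.4 CPM in rescue. The groups were fully apart, with dKO lowest and rescue highest. Gbx2 fell by 1.11 ± 0.13 in dKO against WT (SE, log2; edgeR adjusted p = 1.38e-05), rose by 1.81 ± 0.13 in rescue against dKO and ended 0.69 ± 0.12 above WT. The summed level of the naive ES marker list moved in the same direction, at 6396 to 6544 CPM in WT, 5552 to 5755 CPM in dKO and 7405 to 7527 CPM in rescue. The members of the list did not all do so. The largest part of the sum was Tfcp2l1, with means of 1582 CPM in WT, 1633 CPM in dKO and 2312 CPM in rescue. Tfcp2l1 was not called in dKO against WT (edgeR adjusted p = 0.646). Of the 10, 7 fell and 1 (Klf4) rose in dKO against WT, where 31% and 33.7% of all genes did. In rescue against WT 7 rose and 2 (Sox2 and Dppa3) fell, against 26.8% and 27.3% of all genes. The part of this list in the Gbx2 result was not tested.

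Vax2, a gene of the ventral retina, was at 7.09, 6.99 and 7.58 CPM in WT, 7.46, 8.11 and 7.43 CPM in dKO and 6.66, 5.79 and 8.08 CPM in rescue. All groups overlapped and no comparison was called; in dKO against WT the log2 fold change was 0.09 ± 0.13 (SE; edgeR adjusted p = 0.585). The antisense gene Vax2os overlaps Vax2 by 963 bp, and since the library kit does not mark strand the reads of such partners cannot be told apart. Vax2os itself was at 8.88, 8.35 and 8.46 CPM in WT and 4.6, 4.44 and 3.87 CPM in dKO. Gbx1, a spinal cord gene, was at 0.173 to 0.597 CPM over the 9 libraries and was not called in any comparison.

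All 3 tested paired-type genes, Pitx1, Gsc and Prrx2, rose in dKO and fell in rescue against dKO. Prrx2 was tested through its dKO libraries alone. Among all genes tested 33.7% rose in dKO against WT and 38.2% fell in rescue against dKO. Pitx1, which specifies the hindlimb and the pituitary, was at 1.31, 0.699 and 0.825 CPM in WT, 18.5, 17.4 and 16.8 CPM in dKO and 1.34, 1.12 and 1.34 CPM in rescue. The dKO libraries lay close to one another and far above the rest, and WT and rescue overlapped. Pitx1 rose by 4.26 ± 0.18 in dKO against WT (SE, log2; edgeR adjusted p = 2.49e-09), the smallest p of the 27 genes, and fell by 3.77 ± 0.16 in rescue. Rescue against WT was not called (0.49 ± 0.23, edgeR adjusted p = 0.0907), but was called without the first WT library (0.75, adjusted p = 0.0207).

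Gsc, a gene of the gastrula organizer, was at 7.30, 8.25 and 8.77 CPM in WT, 18.4, 15.6 and 15.8 CPM in dKO and 7.23, 6.68 and 7.05 CPM in rescue. Each rescue library was below each WT library, yet that difference was not called (-0.22 ± 0.11, edgeR adjusted p = 0.124). Gsc rose by 1.02 ± 0.11 in dKO against WT (SE, log2; edgeR adjusted p = 6.02e-06) and fell by 1.24 ± 0.11 in rescue. Prrx2, a gene of limb and facial mesenchyme, was at 0.207, 0.186 and 0.258 CPM in WT, 2.03, 1.28 and 1.56 CPM in dKO and 0.314, 0.514 and 0.389 CPM in rescue. It rose by 2.83 ± 0.34 in dKO, under the narrowest Suz12 peak of the 44.

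Of the 7 tested neuron identity genes 6 rose in dKO, and only Tlx3 was not called. Among all genes tested 33.7% rose. Lmx1a, Mnx1 and Tlx1 were tested through their dKO libraries alone, and Evx1 and Tlx2 through their rescue libraries alone, so this count is limited by the filter. Lmx1b, needed for dorsal limb identity and for serotonergic neurons, was at 1.10, 1.59 and 1.96 CPM in WT, 7.46, 7.17 and 5.71 CPM in dKO and 0.229, 0.42 and 0.432 CPM in rescue. The groups did not overlap, and rescue was below WT. Lmx1b rose by 2.09 ± 0.22 in dKO against WT (SE, log2; edgeR adjusted p = 5.13e-06), fell by 4.27 ± 0.27 in rescue against dKO and fell by 2.18 ± 0.32 in rescue against WT (edgeR adjusted p = 0.000142). The long noncoding RNA C130021I20Rik, which overlaps Lmx1b by 16 bp, was at 0.344, 0.233 and 0.0516 CPM in WT, 4.07, 4.05 and 3.47 CPM in dKO and 0.0286, 0.0934 and 0 CPM in rescue.

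Tlx1, needed for the spleen, was at 0.275, 0.466 and 0.567 CPM in WT, 3.54, 2.90 and 0.838 CPM in dKO and 0.229, 0.374 and 0.13 CPM in rescue. As with Dbx2, the third dKO library was the lowest of its group but above all others. Tlx1 rose by 2.35 ± 0.53 in dKO against WT (SE, log2; edgeR adjusted p = 0.00218) and fell by 3.24 ± 0.55 in rescue. Mnx1, a motor neuron gene, rose from 0.524 ± 0.131 to 1.2 ± 0.0728 CPM (SD, n = 3) in dKO, and was at 0.427 ± 0.00621 CPM in rescue, where rescue against WT was not called. Lmx1a, a roof plate gene, was at 0.138, 0.0933 and 0.0516 CPM in WT, 0.678, 0.811 and 1.04 CPM in dKO and 0.372, 0.28 and 0.173 CPM in rescue. Its higher level in rescue against WT (1.60 ± 0.56, edgeR adjusted p = 0.0292) was lost without the second or the third WT library or the first or the second rescue library, with adjusted p from 0.0516 to 0.145.

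Evx1 and Tlx2 rose in each comparison. Both were tested only because their 3 rescue libraries passed the cutoff, so a high rescue level is in part built in and their p-values are a description. Evx1, a gene of the primitive streak and of spinal interneurons, was at 0, 0 and 0.0516 CPM in WT, 0.226, 0.128 and 0.24 CPM in dKO and 0.657, 0.56 and 0.605 CPM in rescue. Those are 1 read in WT and 49 in rescue, a ratio of 34.1 (exact counting interval 5.84 to 1374), and 12 in dKO, a ratio to WT of 10.8 (1.59 to 460). Tlx2, which acts in enteric neurons, was at 0.138, 0.14 and 0.0516 CPM in WT, 0.301, 0.299 and 0.319 CPM in dKO and 1.09, 0.70 and 0.994 CPM in rescue. It rose by 3.06 ± 0.41 in rescue against WT (SE, log2; edgeR adjusted p = 7.12e-05), and its rise in dKO against WT (1.46 ± 0.52, edgeR adjusted p = 0.0273) was lost without the third WT, the second dKO or the third dKO library (adjusted p = 0.128, 0.0525 and 0.0668).

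The mesoderm marker list was also highest in rescue, at 51.05 to 56.2 CPM summed against 18.2 to 19.4 CPM in WT and 18.6 to 20.4 CPM in dKO, with 4 of its 9 genes over 1 CPM in each rescue library and none at 0. Most of the sum was Eomes, at 43.0, 47.9 and 47.1 CPM in rescue and 15.6, 14.8 and 14.2 CPM in WT. The primitive streak gene T (brachyury) was at 3.63, 3.83 and 4.11 CPM in rescue, 1.38, 1.12 and 1.08 CPM in WT and 0.226, 0.597 and 0.679 CPM in dKO. Of the 6 tested genes of the list, 3 rose and 0 fell in rescue against WT (26.8% and 27.3% of all genes). In rescue against dKO, Eomes and T rose and Foxc2 and Tcf15 fell (32.1% and 38.2% of all genes). The part of this list in the Evx1 and Tlx2 results was not tested. Tlx3, a gene of sensory interneurons, varied widely within WT (0.551, 0.14 and 1.03 CPM), and was at 2.26, 1.11 and 0.799 CPM in dKO and 1.2, 1.26 and 1.21 CPM in rescue. Its log2 fold change of 1.18 ± 0.53 in dKO against WT was not called (edgeR adjusted p = 0.067), but passed without the third WT library (2.04, adjusted p = 0.013) or the third dKO library (1.46, adjusted p = 0.0241). Rescue against WT likewise passed without the third WT library (1.96, edgeR adjusted p = 0.0189).

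The 6 TALE cofactors were all tested and did not move as a block: 3 rose in dKO (Meis1, Meis3 and Pbx3), 2 fell (Meis2 and Pbx2) and Pbx4 was not called. Among all genes tested 33.7% rose and 31% fell. Meis1, a cofactor of Hox proteins in blood stem cells, was at 1.03, 0.979 and 0.773 CPM in WT, 7.99, 7.30 and 6.31 CPM in dKO and 0.772, 0.934 and 0.346 CPM in rescue. The dKO libraries were apart, and WT and rescue overlapped. Meis1 rose by 2.95 ± 0.25 in dKO against WT (SE, log2; edgeR adjusted p = 7.76e-07) and fell by 3.37 ± 0.24 in rescue.

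Meis3, a hindbrain gene, was at 0.344, 0.653 and 0.413 CPM in WT, 3.31, 4.14 and 3.07 CPM in dKO and 1.2, 0.981 and 1.12 CPM in rescue. The groups did not overlap. Meis3 rose by 2.85 ± 0.26 in dKO against WT (SE, log2; edgeR adjusted p = 1.48e-06), with no Suz12 peak within 16007 bp of its start site, and stayed higher by 1.19 ± 0.29 in rescue against WT (edgeR adjusted p = 0.00458). Pbx3 was at 5.51, 5.92 and 4.33 CPM in WT, 9.72, 11.5 and 10.02 CPM in dKO and 2.89, 3.74 and 3.24 CPM in rescue, and fell by 0.69 ± 0.16 in rescue against WT on the log2 scale (SE; edgeR adjusted p = 0.00323).

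Meis2 fell in every comparison. A gene of the palate, retina and neural crest, it was at 34.0, 33.7 and 37.5 CPM in WT, 22.1, 22.4 and 16.2 CPM in dKO and 9.52, 11.3 and 9.94 CPM in rescue. The groups did not overlap and rescue was lowest. Meis2 fell by 0.80 ± 0.12 in dKO against WT (SE, log2; edgeR adjusted p = 0.000105), by 0.98 ± 0.13 in rescue against dKO and by 1.78 ± 0.13 in rescue against WT (edgeR adjusted p = 6.09e-07). The 7 tested genes within 2 Mb of Meis2 had a median log2 fold change of -0.49 in dKO against WT and 0.39 in rescue against dKO.

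Pbx2, a partner of Hox proteins found in most tissues, was at 52.6, 50.1 and 51.3 CPM in WT, 45.0, 44.5 and 40.7 CPM in dKO and 49.0, 51.5 and 50.02 CPM in rescue. All dKO libraries were below the others. Pbx2 fell by 0.24 ± 0.06 in dKO against WT (SE, log2; edgeR adjusted p = 0.00565) and rose by 0.21 ± 0.06 in rescue against dKO, and with libraries scaled by total counts neither was called (-0.11 and 0.08, edgeR adjusted p = 0.171 and 0.310). Pbx4, best known from the testis, was at 3.92, 4.85 and 4.59 CPM in WT, 4.45, 4.01 and 4.03 CPM in dKO and 5.46, 4.81 and 5.32 CPM in rescue. Its rise in rescue against dKO (0.33 ± 0.13, edgeR adjusted p = 0.0383) was lost without the second or the third dKO library or the first or the third rescue library, with adjusted p from 0.0548 to 0.120, and with total counts (0.20, adjusted p = 0.199).

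Hhex, a regulator of liver and thyroid that also marks anterior endoderm, was the 1 tested gene of the gut and blood pair. It was at 17.8, 18.6 and 16.3 CPM in WT, 11.5, 10.6 and 10.1 CPM in dKO and 17.0, 18.4 and 16.9 CPM in rescue. The dKO libraries were below all others, and WT and rescue overlapped. Hhex fell by 0.72 ± 0.09 in dKO against WT (SE, log2; edgeR adjusted p = 3.31e-05) and rose by 0.70 ± 0.09 in rescue against dKO. The endoderm marker list moved the other way, from 26.9 to 33.3 CPM summed in WT to 81.7 to 116.8 CPM in dKO and 57.3 to 70.6 CPM in rescue. All 7 of its tested genes rose in dKO, where 33.7% of all genes did. In rescue against dKO 5 of the 7 fell and 1 (Cdx1) rose, against 38.2% and 32.1% of all genes. Gata6 was at 0.344, 0.839 and 0.567 CPM in WT, 11.2, 9.39 and 15.1 CPM in dKO and 0.457, 0.42 and 0.519 CPM in rescue. Cdx1 made up most of the sum in WT (21.0, 24.4 and 26.3 CPM) and in rescue (57.4, 49.9 and 61.6 CPM).

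Reads for the 18 untested genes were sparse. No group mean exceeded 0.694 CPM, the dKO mean of En1, a midbrain and limb gene. The mean was highest in dKO for 16 of the 18, in rescue for Dlx5 and Emx2, and in WT for none. Of the 16, 3 (Dbx1, Prrx1 and Uncx) had under 10 reads in dKO, Dbx1 only 1, and like Emx2 they have too few reads to order the groups. With no filter on low counts, where 28% of 18729 genes rose and 24.3% fell in dKO against WT, 12 of the 18 rose and none fell (edgeR; the other 6 were not called). In rescue against dKO 1 rose and 8 fell, against 25.1% and 31.2% of genes. Prrx1 is among the 12 and Uncx among the 8, and both calls rest on under 10 reads in dKO. In rescue against WT 2 rose (Dlx5 and Alx1) and none fell, against 20.1% and 20.2%. Alx4, a skull and limb gene, was at 0 in WT and at 0.301, 0.256 and 1.12 CPM in dKO. It had 38 reads in dKO, at least 11.4-fold higher than WT against a floor of 3 reads over the group, but 28 of them came from the third dKO library, and without it the 10 that remain give at least 5.03-fold. Vax1, the partner of Vax2 in eye and forebrain, had 0 reads in WT and rescue and 10 in dKO, at least 2.99-fold higher than WT.

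Dlx5, a bone and inner ear gene, was the one untested gene that rose in rescue against dKO in that analysis. It was at 0, 0 and 0.103 CPM in WT, 0.0753, 0.0853 and 0.16 CPM in dKO and 0.229, 0.374 and 0.432 CPM in rescue. The rescue libraries were above all others, with 26 reads against 2 in WT, a ratio of 9.05 (exact counting interval 2.27 to 78.7). Its neighbour Dlx6 was at 0.527, 0.341 and 0.359 CPM in dKO and 0.114, 0.14 and 0.0865 CPM in rescue, so the 2 genes of this cluster had their highest group means in different groups. Emx2, a forebrain and kidney gene, was at 0.0286, 0.0934 and 0 CPM in rescue, at 0.0753, 0 and 0 CPM in dKO and at 0 in WT, too few reads to order the groups.

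**Figure D4:**
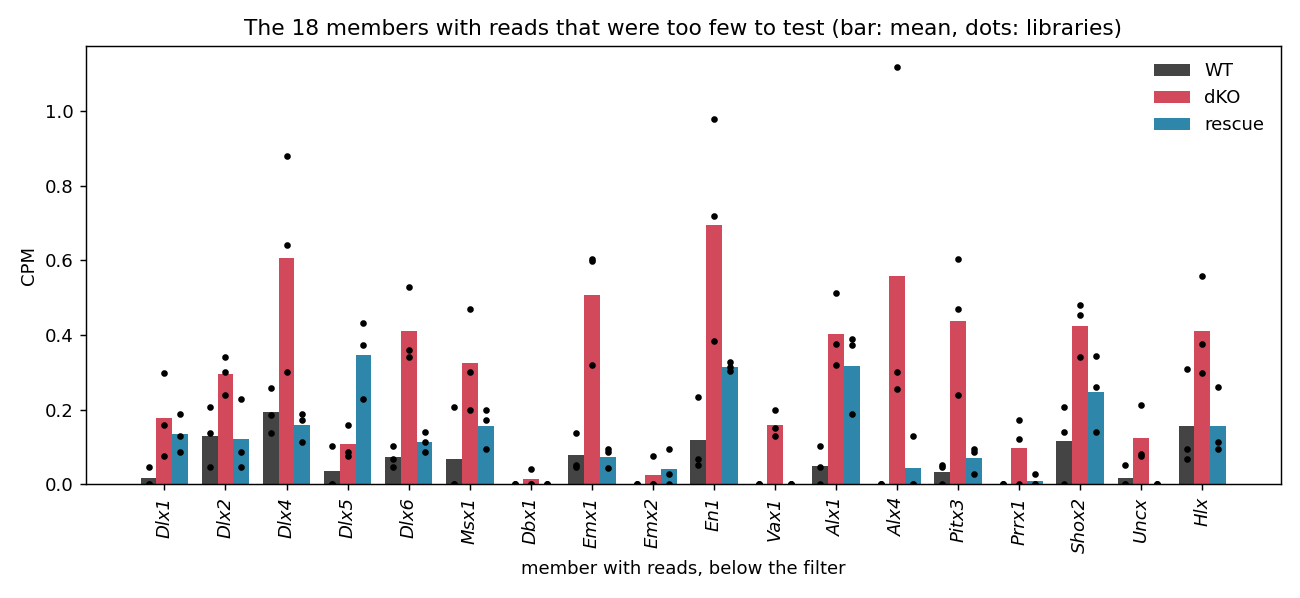
CPM of the 18 genes with too few reads to test, with bars for the mean of each group of 3 libraries and dots for the libraries. The dKO bar is highest for 16 of them, and the rescue bar for Dlx5 and Emx2.

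Calls were read beside the Suz12 peaks, with the filter limit above holding for these counts too. Suz12 lay over 24 of the 27, and of these 18 rose, 3 fell (Gbx2, Hhex and Meis2) and 3 were not called in dKO against WT. The shares over the 4449 such genes that were tested were 56.7% and 16.9%. Of the 17 with a peak over 3000 bp, 16 rose and none fell, where 76.5% of the 332 tested genes with such a peak rose and 8.73% fell. The 3 that fell had widest peaks of 2772, 2071 and 2645 bp, inside the range of those that rose, 1183 to 11454 bp. For Meis2 that peak lay at the far end of the gene, mostly outside it, and the start site was 149 bp from the nearest peak. Peaks covered 0.99% of Meis2 and its flanks of 1000 bp. In rescue against dKO, 17 of the 24 fell and 4 rose, against 58.8% and 18.1% of the 4449, and of the 17 with wide peaks 14 fell and 2 rose, against 66.9% and 12.3% of the 332. The share that rose is thus to be read against wide-peak genes, of which most rose as well, and no test of the difference was made.

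Of the 21 signalling genes that set these factors in the embryo, 13 were tested. In dKO against WT 6 rose and 3 fell, where 33.7% and 31% of all genes tested did. Fgf10, the limb bud signal, rose from 5.16, 5.69 and 6.50 CPM in WT to 17.03, 17.96 and 19.6 CPM in dKO and to 30.4, 29.98 and 30.6 CPM in rescue. Aldh1a2, which makes retinoic acid, fell from 14.3, 14.1 and 16.8 CPM in WT to 4.82, 4.18 and 2.79 CPM in dKO and was at 9.43, 9.67 and 9.77 CPM in rescue. Ptch1, the Hedgehog receptor, fell by 0.82 ± 0.07 in dKO (SE, log2).

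Of the 20 genes that act downstream of such factors in tissues, 10 were tested. By edgeR 6 rose and 2 fell in dKO, against 33.7% and 31% of all genes tested. In rescue against dKO 5 fell and none rose, against 38.2% and 32.1%. Col2a1, the cartilage collagen, was at 2.41, 2.75 and 2.42 CPM in WT, 17.3, 14.3 and 14.5 CPM in dKO and 2.49, 2.24 and 2.55 CPM in rescue. Gad2, which makes the transmitter GABA, fell by 1.85 ± 0.31 in dKO against WT (SE, log2).

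Of the 11 co-repressors and partners 9 were tested, and 2 rose and 5 fell in dKO, against 33.7% and 31% of all genes tested. Ldb1, the cofactor of LIM homeodomain proteins such as LMX1A and LMX1B, was at 175, 172 and 178 CPM in WT, 103, 106 and 91.8 CPM in dKO and 176, 168 and 173 CPM in rescue. It fell by 0.81 ± 0.06 on the log2 scale in dKO (SE; edgeR adjusted p = 3.65e-07). Ldb1 and Lmx1b thus moved in opposite directions in dKO.

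Some markers of other cell types changed in dKO as well. The fibroblast list summed to 9.28 to 10.9 CPM in WT, 62.4 to 68.1 CPM in dKO and 17.1 to 19.0 CPM in rescue, with 3 to 5 of its 10 genes over 1 CPM in WT and 5 to 6 in dKO. All 6 of its tested genes rose in dKO: Thy1, the matrix genes Fbn1, Col1a1 and Col1a2, and the receptors Pdgfra and Pdgfrb. Thy1 was at 28.7, 30.8 and 30.1 CPM in dKO, and Fbn1 rose by 3.80 ± 0.19 (SE, log2). Of its other genes, Lum had no read in any library, and Col3a1, Dcn and Postn were between 0 and 0.151 CPM. The neural list summed to 59.7 to 67.3 CPM in WT, 144.5 to 158 CPM in dKO and 126.3 to 132.7 CPM in rescue, with 4 of its 8 genes over 1 CPM in every library and Dcx at 0 in all. Of its 4 tested genes, Nes and Map2 rose in dKO, Tubb3 fell and Sox1 was not called. Nes, an intermediate filament of progenitors, was at 17.2, 19.3 and 16.5 CPM in WT and 103.6, 112.7 and 91.1 CPM in dKO, and Tubb3, a neuronal tubulin, was at 31.7, 31.8 and 29.7 CPM in WT, 18.4, 17.9 and 23.4 CPM in dKO and 97.4, 92.5 and 90.6 CPM in rescue. The trophoblast list summed to 197 to 211.2 CPM in WT, 256.2 to 281.5 CPM in dKO and 115.6 to 122.2 CPM in rescue, with 5, 7 and 6 of its 8 genes over 1 CPM. Most of that sum was Tfap2c, at 167.1, 173.4 and 160.7 CPM in WT and 87.1, 90.1 and 84.3 CPM in rescue. All 8 genes were tested, and 6 rose and 0 fell in dKO against WT. In rescue against WT, Cdx2, Krt8 and Krt18 rose and Tfap2c and Krt7 fell. Among all genes tested, 33.7% rose and 31% fell in dKO against WT, and 26.8% and 27.3% in rescue against WT. The part of these markers in the changes of the homeobox genes was not tested.

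Genes near Evx1 rose too. The 26 tested genes within 2 Mb of Evx1, which lies beside the Hoxa cluster, had a median log2 fold change of 1.51 in dKO against WT and -0.97 in rescue against dKO, so in the second comparison Evx1 (1.63 ± 0.40) and its neighbours had opposite signs. For Pitx1, with 44 such neighbours, the median was 0.02 in dKO against WT. Another gene overlapped 17 of the 47, and for 9 of them the overlapping gene is itself in the tables, Vax2, Lmx1b and Evx1 among the tested ones.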

How the data were processed

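For RNA the authors deposited raw counts, a whole number of reads for each gene. Per the submitters' processing notes, Trimmomatic, STAR 2.4.0 and HTSeq were used on mm10, with a counting mode and annotation not given in the sources used here. The kit named in the labels' protocols, TruSeq RNA v2, does not mark strand. For Suz12 the authors deposited other values, the start and end of each peak with no score, from a caller not given in the sources used here.

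Genes over 0.45 CPM (a count of 10 at the middle library size) in at least 3 libraries were kept (filterByExpr), which left 14145 of 24222. All 9 libraries were fitted together with edgeR 4.0.16 (R 4.3.3, quasi-likelihood, TMM scaling, 6 residual degrees of freedom), with Benjamini-Hochberg adjustment over all genes tested, two-sided, called under 0.05. The fit was run on simulated counts, with 2-fold changes placed only in genes with a mean over 2 CPM and with a fixed spread. That run says nothing about genes with fewer reads or about a library that stands apart. Fold changes are log2, their error is the standard error, and levels are CPM scaled by TMM. Genes were placed by symbol (22858) or synonym (1246) in the GRCm38.p6 table, and 118 were not placed.

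The genes, lists and tests were chosen with earlier results of these data known. Values in every library were to be given, per comparison, for the 8 called genes with the largest fold change whose higher group reached 2 CPM, for called genes against the majority, for up to 4 genes not called, and for the gene with the smallest p in each role group; further genes were added after their values were seen. The other chromatin samples were not analysed here, and a planned comparison of homeodomain sequences was not made. Alternatives were DESeq2 1.42.0, other scalings and filters, fits of 2 groups, a replicate block, leaving out each library, and other overlap rules for peaks.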

Additional observations from a re-analysis of the deposited data

How the results depend on the processing

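Over 1413 recomputed member results (a gene in a comparison under an alternative), 1358 kept their direction and their side of the threshold, 33 lost the call, 7 gained one and 15 reversed, and no reversed result was called in the reported analysis. With no filter 45 of the 47 genes were tested and 31 rose in dKO against WT, where 28% of 18729 genes rose. With a mean of at least 2 CPM required, 15 were tested: 9 rose in dKO against WT, 3 rose and 10 fell in rescue against dKO, and 3 rose in rescue against WT. In both settings the number of genes tested changed. No share of all genes is given for the setting of 2 CPM or for the fits that leave out a library. Those counts thus have no background here. Leaving out each library in turn gave 20 to 24 higher and 4 lower in dKO against WT, 5 to 6 higher and 18 to 22 lower in rescue against dKO, and 6 to 9 higher and 3 lower in rescue against WT, over 28 to 32 genes tested, since the filter then needs fewer libraries. Same-numbered libraries of different groups had correlations of -0.0964 to 0.165 of their deviations from the group means, and the first WT library correlated best with the second rescue library, so the numbers were not taken to pair the libraries. With the replicate number as a block, 19 rose and 4 fell, 5 rose and 17 fell, and 7 rose and 3 fell in the same order. The block lost 3 calls, En2 and Pbx4 in rescue against dKO (edgeR adjusted p = 0.0541 and 0.0626) and Lmx1a in rescue against WT (0.0533). DESeq2 lost Tlx2 in dKO against WT (adjusted p = 0.0871), Pbx4 in rescue against dKO (0.0604) and Lmx1a in rescue against WT (0.0886), and gained Tlx3 in dKO against WT (0.0444). Scaling by total counts moved the median of all genes in dKO against WT from -0.0026 to 0.13 and in rescue against dKO from -0.0444 to -0.18, and upper-quartile scaling moved the latter to -0.11.

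Reversed log2 values belonged to 6 genes. Leaving out a library moved rescue against WT between -0.0653 and 0.0306 for Hhex, between -0.1152 and 0.2398 for Msx2, between -0.1918 and 0.3793 for Gbx1 and between -0.2062 and 0.0223 for Vax2. It moved rescue against dKO between -0.5472 and 0.01 for Gbx1 and between -0.3467 and 0.36 for Tlx3. Hhex in rescue against WT was also 0.0018 with DESeq2 and 0.0026 with RLE factors, and Pbx4 in dKO against WT was 0.0212 with total counts. The cause was not tested. The count of 44 genes with a Suz12 peak was also 44 over the gene body alone or with a margin of 5 kb. It was 44 as well with only the peaks wider than the median of 1032 bp. It was 43 with at least 0.5 of the peak inside, and 30 of 33 within 1 kb of the start site. With 12457622 reads in the smallest library, 3 reads correspond to 0.241 CPM, and differences between levels below that rest on a few reads.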
